A study of Mus musculus with 12 samples.

Results

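The interaction of busulfan and AOS was examined in mouse small intestine: for each gene, the AOS difference after busulfan minus the AOS difference without busulfan. The deposited table held 16942 genes, all of which were taken as members. Of these, 12329 had enough counts to be tested, and the other genes were too low in too many libraries. The study sequenced total RNA from 12 libraries in 4 groups of 3, all from ICR mice, an outbred laboratory strain. The AOS0 group had no busulfan and AOS at 0, and the AOS10 group had no busulfan and AOS at 10. The B+A0 group had busulfan and AOS at 0, and the B+A10 group had busulfan and AOS at 10. All libraries share the prefix W5 in their names, which the labels do not expand. The labels also leave AOS unexpanded, and they give no unit, route, age, sex or time. The interaction is therefore (B+A10 minus B+A0) minus (AOS10 minus AOS0) on the log2 scale. A value above 0 means that the AOS difference was more positive after busulfan, and the same number is obtained by comparing the busulfan difference at AOS 10 with that at AOS 0.

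Busulfan, an alkylating agent, forms cross-links in DNA and is used to deplete blood-forming cells and germ cells. The small intestinal epithelium is renewed from crypt stem cells and holds many intraepithelial T cells, which descend from blood-forming cells. Its absorptive cells carry digestive enzymes and drug-metabolizing cytochrome P450 enzymes, and they answer interferons, the secreted signals of virus defence, by inducing a shared set of genes. In a design with a pair of treatments, the interaction asks whether the effect of one treatment depends on the presence of the other.

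Total counts per library ranged from 13560246 to 16818237. Summed levels of 23 brush border and digestion genes lay between 13795 and 24937 CPM (counts scaled to a common library size), and those of exocrine pancreas genes between 3.03 and 4.41 CPM, so intestinal epithelial transcripts were abundant in every library. Between replicates of a group, the chi-square over its degrees of freedom was 8.28 to 35.4, more than counting noise gives. On the first principal component, which held 27.5% of the variance, B+A0 replicates 2 and 3 lay farthest to one side, at 27.7 and 43.55, with B+A0 replicate 1 at 6.74. Whether the libraries within a group are separate animals is not stated in the labels, and p-values therefore reflect sample-to-sample spread that may be technical. Muscle transcripts were sparse: of 10 smooth muscle genes, 2 had enough counts to be tested, Mylk and Smtn. The muscle genes Acta2, Myh11 and Des reached at most 16, 11 and 17 counts in any library. These 5 genes were named after their values were seen. In RNA from many cells together, fewer cells of a type and less RNA per cell cannot be told apart.

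No gene passed the interaction test. Among the 36 gene lists with at least 5 tested genes, the median interaction was highest for T and natural killer cell genes, at 1.57 on the log2 scale, and lowest for interferon-stimulated genes, at -0.57. The smallest Benjamini-Hochberg adjusted p was 0.499 (edgeR quasi-likelihood test over 12329 genes). Without adjustment, 844 genes had p under 0.05, or 6.85% of those tested. Of these, 517 lay above 0 (4.19% of tested genes) and 327 below 0 (2.65%). Over all tested genes, 6415 interactions lay above 0 and 5914 below 0, with a median of 0.01. The median standard error (SE) of an interaction was 0.187 on the log2 scale. It was 0.159 among genes whose mean reached 10 CPM and 0.402 among genes below that mean. DESeq2, a second count model, called 16 genes (0.12% of those it adjusted), 13 of them above 0 (0.0978%) and 3 below 0 (0.0226%), with 856 at an unadjusted p under 0.05. Leaving out B+A10 replicate 3 gave edgeR 1 called gene, Egr1.

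**Figure D1:**
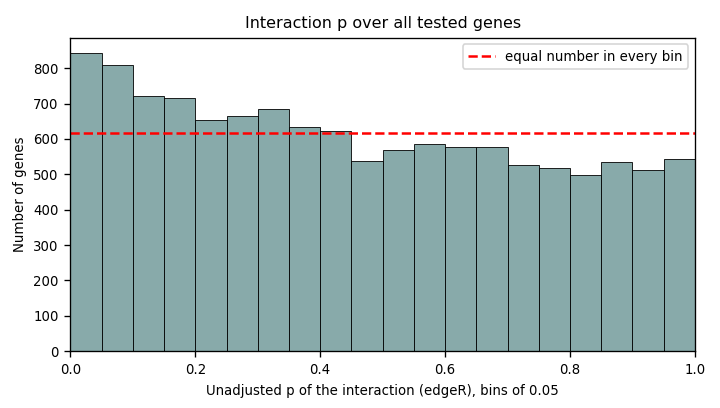
Number of genes (vertical axis) by unadjusted edgeR p of the interaction (horizontal axis, bins of 0.05) over 12329 tested genes. The bin from 0 to 0.05 holds 844 genes and the next holds 808, both above the 616.5 of the dashed line for equal bins.

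The interaction can be read from its component differences, each estimated in the same fit of all 12 libraries. By edgeR with Benjamini-Hochberg adjustment, no gene passed for AOS10 against AOS0, nor for B+A10 against B+A0. Between B+A0 and AOS0, 210 genes were higher (1.7% of tested genes) and 239 lower (1.94%). Between B+A10 and AOS10, 18 were higher (0.146%) and 2 lower (0.0162%). These numbers of calls are not a test of the interaction. Across 12329 genes, the AOS difference without busulfan and that after busulfan, which share no library, had a Pearson correlation of -0.0158 and a Spearman correlation of 0.0664. The busulfan differences at AOS 0 and AOS 10, which also share no library, had correlations of 0.264 and 0.391. For the 8935 genes whose mean reached 10 CPM the AOS correlations were 0.0621 and 0.141, and the busulfan correlations 0.325 and 0.424. These are descriptions over genes, which are not independent, and low counts weaken them.

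**Figure D2:**
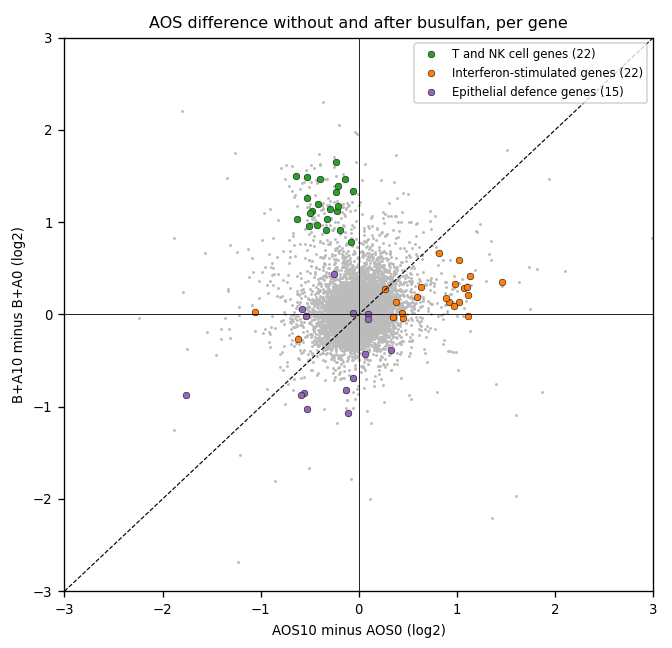
Log2 difference of AOS10 from AOS0 (horizontal) against that of B+A10 from B+A0 (vertical) for 11638 genes whose mean reached 1 CPM, 16 of which lie outside the axes. Genes on the dashed diagonal have no interaction. The 22 T and natural killer cell genes drawn lie above it, most of the 22 interferon-stimulated genes lie to its right, and 15 inducible epithelial defence genes are drawn for comparison.

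Which group stood apart was counted in all tested genes. The 3 B+A0 libraries all lay below the other 9 libraries in 229 genes (1.86%) and above them in 207 (1.68%). The 3 AOS0 libraries lay above the other 9 in 207 genes (1.68%) and below them in 261 (2.12%). The counts were smaller for AOS10, with 100 above (0.811%) and 87 below (0.706%), and for B+A10, with 106 above (0.86%) and 74 below (0.6%). Among the 517 genes above 0 at an unadjusted p under 0.05, B+A0 lay below all others in 143 genes and AOS0 above all others in 49. B+A10 lay above all others in 26 of them and AOS10 below all others in 15. Among the 327 genes below 0, B+A0 lay above all others in 68 and AOS0 below all others in 51, while AOS10 lay above in 12 and B+A10 below in 14. The contrast itself favours these directions, so the split describes the genes and tests nothing.

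The 10 named genes above 0 with the smallest p included Ugcg, Pard3b, Slc25a36, Hoxb9, Dyrk2, Klf3, Crebrf, Fzd5 and Scd1, all with an adjusted p of 0.499 by edgeR. Ugcg (chr4:59189507-59222833, GRCm38.p6) encodes the glucosyltransferase that makes glucosylceramide, the precursor of most glycosphingolipids. Its level was 56.2, 51.3 and 55.6 CPM in AOS0 and 37.3, 44.3 and 40.6 CPM in AOS10. After busulfan it was 47.0, 41.3 and 37.0 CPM in B+A0 and 51.7, 54.5 and 51.8 CPM in B+A10. AOS0 and B+A10 were thus high, AOS10 and B+A0 low, and the high and low libraries did not overlap. The interaction was 0.75 (SE 0.136, 95% interval 0.46 to 1.05), made of an AOS difference of -0.42 without busulfan and 0.34 after it.

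Pard3b (chr1:61638667-62642284), which encodes a protein of the PAR cell polarity family, had another pattern. It lay at 25, 25.2 and 23.7 CPM in AOS0 and at 24.6, 25.7 and 23.2 CPM in AOS10. It lay at 20.6, 19.0 and 17.6 CPM in B+A0 and at 29.6, 28.6 and 30.1 CPM in B+A10. B+A0 was below all other libraries and B+A10 above all others, and the groups without busulfan overlapped. The interaction was 0.64 (SE 0.124). Slc25a36, a mitochondrial carrier of pyrimidine nucleotides, lay between 30.9 and 34.0 CPM in B+A0 and between 41.7 and 61.0 CPM in the other 9 libraries, with an interaction of 0.75 (SE 0.147).

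Klf3 encodes a Krüppel-like transcription factor. Its level was 188.3, 172.1 and 162.2 CPM in B+A10, above all other libraries, which ranged from 111.0 to 145.6 CPM. Fzd5, a Wnt receptor of crypt cells, was at 305.6, 288.2 and 249.5 CPM in B+A10, again above the others at 196.4 to 245.3 CPM. The interactions of Klf3 and Fzd5 were 0.60 (SE 0.125) and 0.57 (SE 0.121). Dyrk2, a protein kinase, had an interaction of 0.59, and Crebrf, a regulator of CREB3-type factors, one of 1.28. Scd1, the fatty acid desaturase, had one of 2.23 (SE 0.508) at group means of only a few CPM. DESeq2 called all of these genes but Scd1, and its adjusted p was 0.00871 for Ugcg, 0.0189 for Fzd5, 0.0189 for Klf3, 0.0189 for Slc25a36 and 0.0306 for Pard3b.

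Hoxb9 (chr11:96271330-96276595), a homeobox gene of positional identity along the body axis, was highest in AOS0. It lay at 8.42, 7.67 and 17.3 CPM in AOS0 and at 0.614, 0.778 and 0.401 CPM in AOS10. In B+A0 it lay at 0.878, 1.91 and 0.606 CPM, and in B+A10 at 0.364, 5.31 and 1.41 CPM. AOS0 was above all other libraries, and B+A10 spread widely, with replicate 2 highest. The interaction was 5.24 (SE 1.04), and 3.85 without B+A10 replicate 2. Its neighbours in the HoxB cluster, chosen after their values were seen, also had their highest group mean in AOS0: Hoxb6, Hoxb7 and Hoxb8 had interactions of 3.99, 4.19 and 5.91. Hoxb4 and Hoxb3, the other tested genes of the cluster, had smaller values of 1.49 (95% interval -0.10 to 3.07) and 1.57 (95% interval -0.68 to 3.83), and both intervals include 0. B+A10 replicate 2 was the highest B+A10 library for Hoxb6, Hoxb7 and Hoxb8 and overlapped AOS0 for Hoxb7 and Hoxb8, and without it the values of these 3 genes were 1.77, 2.94 and 3.03. Reads of neighbouring Hox genes can overlap, and strand use in counting is not given in the sources used here. The summed level of 18 genes typical of the distal small intestine ranged from 7011 to 9197 CPM in AOS0 and from 6162 to 8799 CPM in the other groups. Its part in the Hox values was not tested.

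The 10 named genes below 0 with the smallest p were Tuba1a, Wrap73, Gmppb, Lgals9, Oas1a, Oas1g, Nid2, Ubac1, Usp2 and Arhgef10l, all with an adjusted p of 0.499 by edgeR. Lgals9 (chr11:78962979-78984924) encodes galectin-9, a sugar-binding protein of intestinal epithelium. Its level was 1372, 1312 and 1297 CPM in AOS0 and 1993, 1889 and 1695 CPM in AOS10. It was 1820, 1569 and 1651 CPM in B+A0 and 1727, 1717 and 1627 CPM in B+A10. AOS0 was below all other libraries, and the busulfan groups overlapped. The AOS difference was 0.49 without busulfan and 0.01 after it, an interaction of -0.48 (SE 0.118). DESeq2 called Lgals9 with an adjusted p of 0.0496.

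Gmppb, an enzyme that makes GDP-mannose for glycosylation, was also lowest in AOS0, at 63.3, 67.7 and 66.3 CPM against 72.6 to 104.8 CPM in the other 9 libraries, with an interaction of -0.54. Nid2, which encodes a basement membrane protein, lay at 7.06, 5.70 and 4.88 CPM in AOS10 and between 0.50 and 4.18 CPM in the others. Its interaction of -3.73 (SE 0.949) moved to -2.53 without B+A0 replicate 3. Tuba1a, an alpha-tubulin gene, lay at 3.64, 4.50 and 4.36 CPM in B+A10, below all others. It ranged from 8.01 to 85.2 CPM in AOS10 alone, with an interaction of -4.05 (SE 0.943). Its reads may be split with near-identical tubulin genes, which was not tested and leaves the value uncertain. Wrap73 had an interaction of -0.65, Ubac1 one of -0.40, the deubiquitinase gene Usp2 one of -0.54 and Arhgef10l, a guanine nucleotide exchange factor, one of -0.56. Usp2 was highest in AOS10, at 57.7, 50.7 and 57.4 CPM, and lowest in B+A10, at 37.8, 37.8 and 36.1 CPM. Arhgef10l was highest in B+A0, at 40.7, 40.6 and 46.5 CPM, with 24.8 to 33.4 CPM elsewhere.

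**Figure D3:**
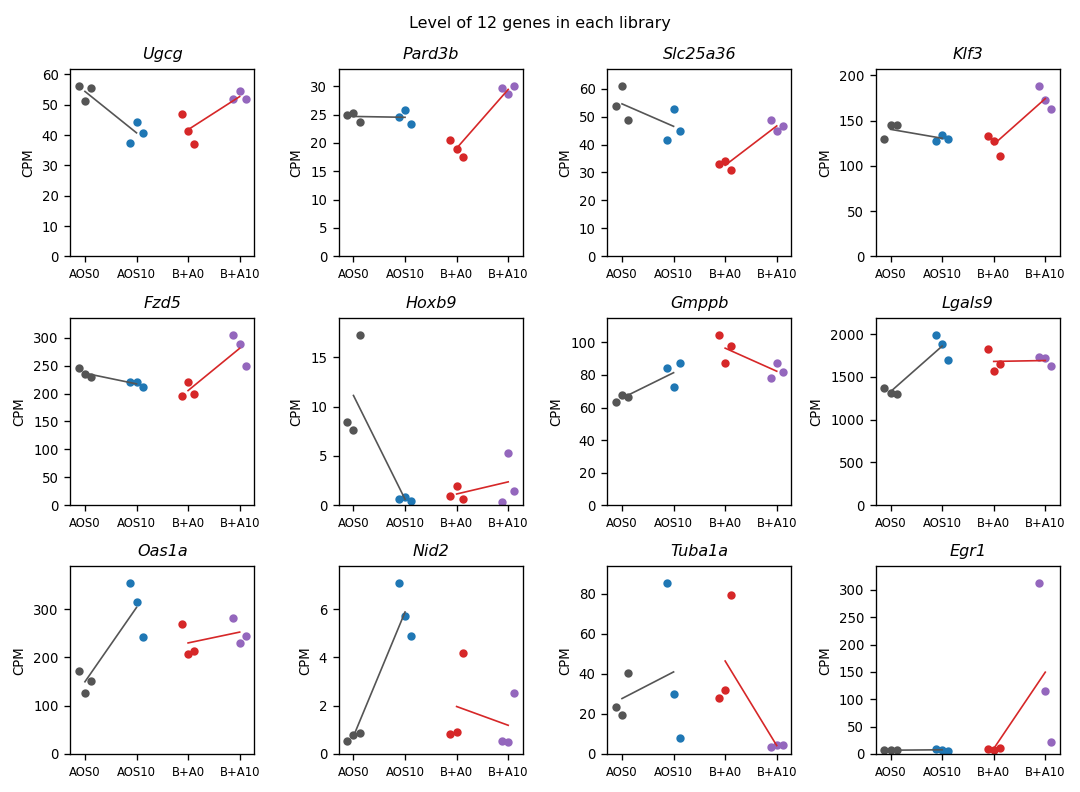
Level in CPM (vertical axis, from 0) of 12 named genes in each of the 12 libraries. Points are libraries, and lines join the group means of AOS 0 and AOS 10 without busulfan (grey) and after busulfan (red). Lines of unequal slope show the interaction: Pard3b is flat without busulfan and goes from a mean of 19.1 to 29.4 CPM after it, and Egr1 spreads from 22 to 312 CPM in B+A10.

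T and natural killer cell genes had low levels in B+A0. Their summed level in B+A10 reached that of the groups without busulfan in replicate 2 only. B+A10 replicates 1 and 3 lay below every library without busulfan. Of 30 listed genes, 26 were tested, and 25 of those had an interaction above 0, the exception being Prf1 at -0.07 (named after its value was seen). With an unadjusted p under 0.05, 21 lay above 0 and none below, where 4.19% and 2.65% of all tested genes did, and none passed after adjustment. The median was 1.57, against 0.01 over all genes. With no filter on low counts, 27 of 30 lay above 0 and 21 again had p under 0.05. The median difference of B+A0 from AOS0 was -1.64, and 16 of the 26 genes fell by the edgeR test, against 1.94% of all tested genes. The median difference of B+A10 from AOS10 was -0.18, and none of the 26 passed. The median AOS difference was -0.33 without busulfan and 1.16 after it, with all 26 genes above 0 in the latter. In 11 of the 26, the B+A0 libraries all lay below the other 9, as they did in 1.86% of tested genes.

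The summed level of the T and natural killer cell list was 452, 269 and 424 CPM in AOS0 and 349, 257 and 274 CPM in AOS10. It was 161, 98.3 and 68.6 CPM in B+A0 and 169, 436 and 208 CPM in B+A10. All B+A0 sums were below those of the other 9 libraries, by a narrow gap between B+A0 replicate 1 and B+A10 replicate 1, and B+A10 replicate 2 was about as high as AOS0. Without B+A10 replicate 2 the median interaction of the 26 genes was 1.05, and 12 of 27 tested genes had p under 0.05. The range over the 12 fits with 1 library left out was 1.05 to 1.89.

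Itgae, the CD103 integrin that holds intraepithelial T cells to epithelium, lay at 27.5, 16.2 and 21.4 CPM in AOS0 and at 19.7, 15.2 and 14.6 CPM in AOS10. It lay at 7.65, 5.42 and 3.52 CPM in B+A0 and at 10.1, 24.3 and 11.7 CPM in B+A10. B+A0 was below all others, and the other groups overlapped. Its interaction was 1.86 (SE 0.472, 95% interval 0.84 to 2.89, adjusted p = 0.499 by edgeR), and DESeq2 called it with an adjusted p of 0.044. Gzma, a granzyme of cytotoxic cells, had an interaction of 2.15 (SE 0.575), and Cd7, a T and natural killer cell receptor, one of 1.88 (SE 0.505). Cd3e, a signalling chain of the T cell receptor complex, had one of 2.02 (SE 0.572), with 1.39 to 3.39 CPM in B+A0 and 4.11 to 10.6 CPM in B+A10. Cd4, the helper T cell co-receptor, had one of 1.80 (SE 0.734, adjusted p = 0.686 by edgeR). Every Cd4 library of both busulfan groups was below every library of AOS0, at 0.188 to 0.546 CPM in B+A0 and 0.606 to 1.06 CPM in B+A10 against 1.71 to 3.89 CPM.

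Other immune cell lists were smaller. Of 20 macrophage, monocyte and dendritic cell genes 8 were tested, 6 above 0, with a median of 0.82. At p under 0.05, 2 lay above 0, against 4.19% of all tested genes. Leaving out AOS0 replicate 1, AOS0 replicate 2 or B+A10 replicate 1 gave 4 list members above 0 at that p. Itgax, the CD11c integrin of dendritic cells and some intraepithelial T cells, led them at 1.90 (SE 0.452, adjusted p = 0.499 by edgeR). It lay at 3.95, 3.21 and 3.77 CPM in AOS0 and at 2.58, 2.59 and 3.01 CPM in AOS10. It lay at 0.816, 0.536 and 0.909 CPM in B+A0 and at 1.46, 3.31 and 1.59 CPM in B+A10. Of 16 mast cell and eosinophil genes 7 were tested, 6 above 0, with a median of 0.81. This median was 0.30 without B+A10 replicate 2, 0.44 without AOS0 replicate 3 and 1.295 without AOS0 replicate 1. With no filter on low counts 13 were tested, 8 above 0, with a median of 0.06. Kit, the stem cell factor receptor, had an interaction of 0.54 (SE 0.139), and the mast cell protease genes Mcpt4 and Mcpt1 had values of 2.21 (SE 0.877) and 1.08 (SE 0.64). Mcpt1 was low after busulfan with and without AOS: 6.40 to 10.004 CPM in B+A0 and 7.30 to 24.8 CPM in B+A10, against 32.1 to 85.4 CPM without busulfan. Its value was 0.30 without B+A10 replicate 2. B cell and plasma cell genes had 7 of 20 tested, 5 above 0, and a median of 0.15.

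Interferon-stimulated genes had the opposite sign. They were higher in AOS10 than in AOS0 by a median of 0.90, while B+A10 and B+A0 differed by a median of 0.18, and no single gene passed in either comparison. Of 24 listed genes, the 22 found in the table were all tested: 19 had an interaction below 0 and 3 above. With p under 0.05, 8 lay below 0, against 2.65% of all tested genes, and none above, and none passed after adjustment. The median was -0.57. The summed level was 1956, 1328 and 1567 CPM in AOS0 and 3392, 3023 and 2387 CPM in AOS10. It was 2827, 1840 and 1709 CPM in B+A0 and 2444, 2341 and 2628 CPM in B+A10. AOS10 thus lay above AOS0 without overlap, and B+A0 replicate 1 lay above all B+A10 libraries. Without B+A0 replicate 1 the median interaction was -0.22, 4 genes lay below 0 at p under 0.05 and 1 above. Without AOS0 replicate 1 the median was -0.83 with 11 below 0 at p under 0.05. Without AOS0 replicate 2 or without AOS10 replicate 1, 4 genes lay below 0 at that p in each fit, with medians of -0.41 and -0.48. The number was 5 without AOS0 replicate 3, AOS10 replicate 2 or B+A10 replicate 2.

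Many genes of this kind carry interferon response elements upstream of their start, in which the bases GAAA are repeated at a fixed spacing. The letters GAAA, any 2 bases, then GAAA again were searched on both strands in the 250 bases upstream of each start in the RefSeq promoter table (GRCm38.p6). It was found in 11 of the 18 tested interferon-stimulated genes with an entry there, or 61.1%, in 3.24% of 9897 tested genes with an entry and in 2.98% of all 32851 windows. The windows of Oas1a (chr5:120907526-120907775, minus strand), Oas3 (chr5:120777660-120777909, minus strand), Isg15 (chr4:156200819-156201068, minus strand) and Ifit1 (chr19:34640639-34640888, plus strand) are shown because these were the 4 list members with the smallest interaction p among those with a match. They are written 5′ to 3′ in the direction of transcription, and capitals mark the matches, which overlap each other in Oas1a and Isg15.
Oas1a: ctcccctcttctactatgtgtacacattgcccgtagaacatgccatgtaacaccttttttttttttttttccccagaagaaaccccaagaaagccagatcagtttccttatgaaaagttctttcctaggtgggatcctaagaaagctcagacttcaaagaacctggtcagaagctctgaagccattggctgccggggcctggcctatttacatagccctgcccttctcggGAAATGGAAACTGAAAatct
Oas3: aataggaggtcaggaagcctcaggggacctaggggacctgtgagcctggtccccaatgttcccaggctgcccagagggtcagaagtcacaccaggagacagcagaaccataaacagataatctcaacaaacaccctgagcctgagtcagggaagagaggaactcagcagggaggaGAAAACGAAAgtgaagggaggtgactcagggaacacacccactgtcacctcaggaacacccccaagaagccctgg
Isg15: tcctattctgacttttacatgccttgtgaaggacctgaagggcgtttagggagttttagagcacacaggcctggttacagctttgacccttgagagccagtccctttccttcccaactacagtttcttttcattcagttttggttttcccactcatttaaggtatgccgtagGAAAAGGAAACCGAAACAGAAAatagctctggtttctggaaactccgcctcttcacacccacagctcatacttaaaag
Ifit1: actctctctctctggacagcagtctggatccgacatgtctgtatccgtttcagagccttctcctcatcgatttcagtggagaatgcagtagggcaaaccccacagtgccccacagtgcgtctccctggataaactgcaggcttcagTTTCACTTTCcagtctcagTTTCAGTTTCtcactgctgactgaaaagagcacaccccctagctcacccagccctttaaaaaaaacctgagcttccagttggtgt
The first base of a match lies 20 and 14 bases upstream of the start in Oas1a, 75 in Oas3, 78, 72 and 66 in Isg15, and 104 and 85 in Ifit1. The start is that of the RefSeq promoter entry. For Oas1a it lies inside the gene span given below, so the Oas1a matches lie at least partly within that span. The list members Oasl2, Oasl1, Ddx58 and Irf7, named after their values were seen, had an unadjusted edgeR p under 0.05 and no match. Of the genes shown, Oas1a and Oas3 were also under 0.05, while Isg15 and Ifit1 were above it. Whether a match goes with the interaction was not tested. A match describes the letters of the window and is no sign that a factor was bound in these samples.

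Oas1a (chr5:120896256-120907544) encodes an oligoadenylate synthetase, an enzyme that senses double-stranded RNA. It lay at 172, 126 and 150.2 CPM in AOS0 and at 353, 314 and 242 CPM in AOS10. It lay at 269, 208 and 213 CPM in B+A0 and at 282, 231 and 244 CPM in B+A10. AOS0 was below all other libraries, and the 2 busulfan groups overlapped. The interaction was -0.89 (SE 0.219, 95% interval -1.36 to -0.41, adjusted p = 0.499 by edgeR), made of an AOS difference of 1.02 without busulfan and 0.13 after it. Oas1g, a near-identical copy whose reads may be split with Oas1a, had an interaction of -1.0. Oas2 and Oas3, other members of the synthetase family, had values of -1.10 (SE 0.362) and -0.79 (SE 0.269). Isg15, a ubiquitin-like protein, and Ifit1, an RNA-binding protein, had values of -0.88 (SE 0.428) and -0.71 (SE 0.393), each with a p above 0.05. Ifit1 lay at 88.2 CPM in B+A0 replicate 1 and at 40.8 and 38.8 CPM in replicates 2 and 3, and without replicate 1 its interaction was -0.22 and that of Isg15 -0.41.

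Class I antigen presentation genes, many of which interferons also induce, showed smaller values of the same sign. Of 14 genes, all tested, 10 lay below 0, and the median was -0.26. At p under 0.05, 3 lay below 0, against 2.65% of all tested genes, and none above. These 3 were the peptide transporter gene Tap1 at -0.53 (SE 0.209) and the immunoproteasome genes Psmb9 at -0.39 (SE 0.163) and Psmb8 at -0.34 (SE 0.151). The median moved most with 1 library: without B+A0 replicate 1 it was -0.03, and no member lay below 0 at p under 0.05. None did without AOS0 replicate 2, AOS10 replicate 1 or B+A10 replicate 3 either, and 1 did without AOS0 replicate 3 or B+A10 replicate 1. Class II genes had 6 of 9 tested members above 0, with a median of 0.09.

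**Figure D4:**
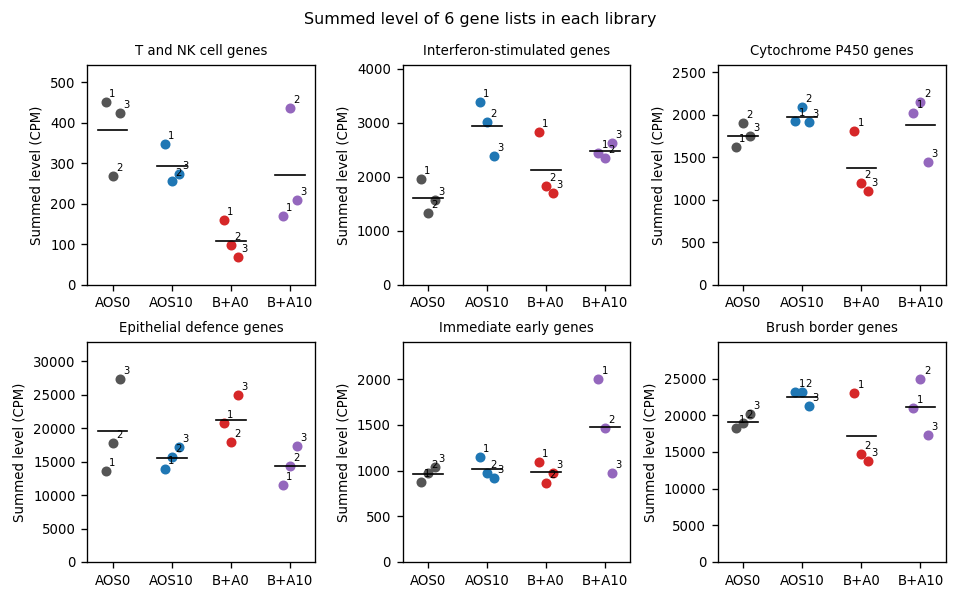
Summed level in CPM (vertical axis, from 0) of 6 gene lists in each library, by group (horizontal axis). Points are libraries with their replicate numbers, and bars are group means. T and natural killer cell genes are lowest in B+A0 at 68.6 to 161 CPM, and the immediate early genes reach 2002 CPM in B+A10 replicate 1. Interferon-stimulated genes have their lowest mean in AOS0, at 1328 to 1956 CPM, and B+A0 replicates 2 and 3 lie within that range.

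Some genes of drug and retinoid metabolism were low in B+A0. Of 25 cytochrome P450 genes and their receptors 20 were tested, 15 above 0, with a median of 0.47. With p under 0.05, 4 lay above 0 and none below, against 4.19% and 2.65% of all tested genes, and none passed after adjustment. Between B+A0 and AOS0, 3 of the 20 fell by the edgeR test, against 1.94% of all tested genes. Cyp3a25 (chr5:145977192-146009644), a drug-oxidizing enzyme of the 3A family, lay at 61.8, 104.5 and 65.3 CPM in AOS0 and at 49.4, 57.9 and 62.1 CPM in AOS10. It lay at 33.4, 26.7 and 19.0 CPM in B+A0 and at 41.2, 50.4 and 40.5 CPM in B+A10. B+A0 was below all others, and the AOS10 and B+A10 ranges overlapped. Its interaction was 1.19 (SE 0.304, adjusted p = 0.499 by edgeR). Cyp3a genes are a family of close copies, so reads may be split among them. Cyp1a1, the main target of the aryl hydrocarbon receptor, had an interaction of 4.0 (SE 1.23, adjusted p = 0.508 by edgeR). It lay at 108.8, 24.0 and 6.07 CPM in B+A10 and at 0.583 to 12.2 CPM elsewhere, and without B+A10 replicate 1 the value was 2.38. The number of P450 list members above 0 at p under 0.05 was 9 without B+A0 replicate 1 or without B+A10 replicate 3. It was 2 without AOS10 replicate 1, AOS10 replicate 3 or B+A0 replicate 3.

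Of 20 retinoid metabolism genes 14 were tested, 10 above 0, 3 of them with p under 0.05 against 4.19% of all tested genes, and the median was 0.16. Without B+A10 replicate 2 the median was 0.006995, with 7 above 0 and 7 below. Adh1 (chr3:138277585-138290698), an alcohol dehydrogenase that also oxidizes retinol, lay at 333, 458 and 383 CPM in AOS0 and at 484, 437.5 and 516 CPM in AOS10. It lay at 206, 176 and 162 CPM in B+A0 and at 336, 477 and 323 CPM in B+A10. B+A0 was below all others without overlap, and Adh1 was lower in B+A0 than in AOS0 by the edgeR test (log2 difference -1.11, adjusted p = 0.0069). Its interaction was 0.77 (SE 0.221, adjusted p = 0.499 by edgeR). The retinol dehydrogenase gene Rdh7 and Lrat, which makes retinyl esters, had values of 0.94 (SE 0.365) and 0.61 (SE 0.241). The summed brush border level moved with these lists: it was 22966, 14677 and 13795 CPM in B+A0 replicates 1 to 3 and 17294 to 24937 CPM in the other 9 libraries. None of the 23 brush border genes had p under 0.05, and their median was 0.16. Without B+A0 replicate 1 all 23 lay above 0, 10 of them with p under 0.05, and the median was 0.51. Among 24 lipid absorption genes 15 lay above 0, with a median of 0.09, and only Cd36, a fatty acid transporter, had p under 0.05, at 1.33 (SE 0.436). Without B+A0 replicate 1, 22 of the 24 lay above 0, 10 of them with p under 0.05, and the median was 0.40. The part of absorptive cell content in the P450 and retinoid values was not tested.

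Inducible epithelial defence genes were divided. Of 20 genes 16 were tested, 11 below 0 and 5 above, with a median of -0.27, and at p under 0.05 there were 4 below and 1 above, against 2.65% and 4.19% of all tested genes. Duox2 (chr2:122279246-122298740), the epithelial oxidase that makes hydrogen peroxide, lay at 325, 369 and 465 CPM in AOS0 and at 331, 353 and 426 CPM in AOS10. It lay at 557, 539.9 and 655 CPM in B+A0 and at 313, 378 and 397 CPM in B+A10. B+A0 was above all others, and the remaining 3 groups overlapped. Duox2 was higher in B+A0 than in AOS0 by the edgeR test (log2 difference 0.60, adjusted p = 0.0415). The interaction was -0.63 (SE 0.203, adjusted p = 0.545 by edgeR). Its maturation factor Duoxa2, which lies next to it in the genome, had an interaction of -0.96 (SE 0.276) and the same order, with 85.5 to 126 CPM in B+A0 and 40.6 to 80.4 CPM in the others. Reads may overlap in this neighbouring pair, and whether strand was used to separate them is not given in the sources used here. Retnlb, a goblet cell protein against bacteria, had a value of -0.69 (SE 0.244). Leaving out AOS0 replicate 1 gave a list median of -0.03, leaving out B+A0 replicate 3 one of -0.07, and leaving out AOS0 replicate 3 one of -0.47.

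Immediate early genes, which are transcribed within minutes of stimulation, were high in part of B+A10. Of 24 genes 22 were tested, 18 above 0, with a median of 0.31 and 3 above 0 at p under 0.05, against 4.19% of all tested genes. Egr1, a zinc finger transcription factor, lay at 7.58, 6.49 and 6.36 CPM in AOS0 and at 9.52, 7.32 and 5.94 CPM in AOS10. It lay at 9.72, 7.51 and 11.8 CPM in B+A0 and at 312, 115 and 22 CPM in B+A10. B+A10 was above all other libraries, but its own libraries spread more than 10-fold. The interaction was 3.79 (SE 0.979, 95% interval 1.67 to 5.91, adjusted p = 0.499 by edgeR). It was 2.66 without B+A10 replicate 1 and 4.30 without B+A10 replicate 3, where it passed with an adjusted p of 0.0421 by edgeR. Egr1 also rose in B+A10 against AOS10, by 4.29 on the log2 scale (adjusted p = 0.0332 by edgeR). Fos, a subunit of the AP-1 factor, lay at 228, 130.0 and 47.3 CPM in B+A10 and at 28.7 to 68.2 CPM elsewhere, with an interaction of 1.35 (SE 0.611), which was 0.74 without B+A10 replicate 1. Klf6 had a value of 0.80 (SE 0.239). The order of the 3 B+A10 libraries was the same for Egr1, Fos, Cyp1a1 and the summed list, at 2002, 1464 and 977 CPM. Leaving out B+A10 replicate 1 gave a list median of 0.18, and leaving out B+A10 replicate 3 gave 0.53 with 8 members above 0 at p under 0.05. That number was 5 without B+A0 replicate 1.

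**Figure D5:**
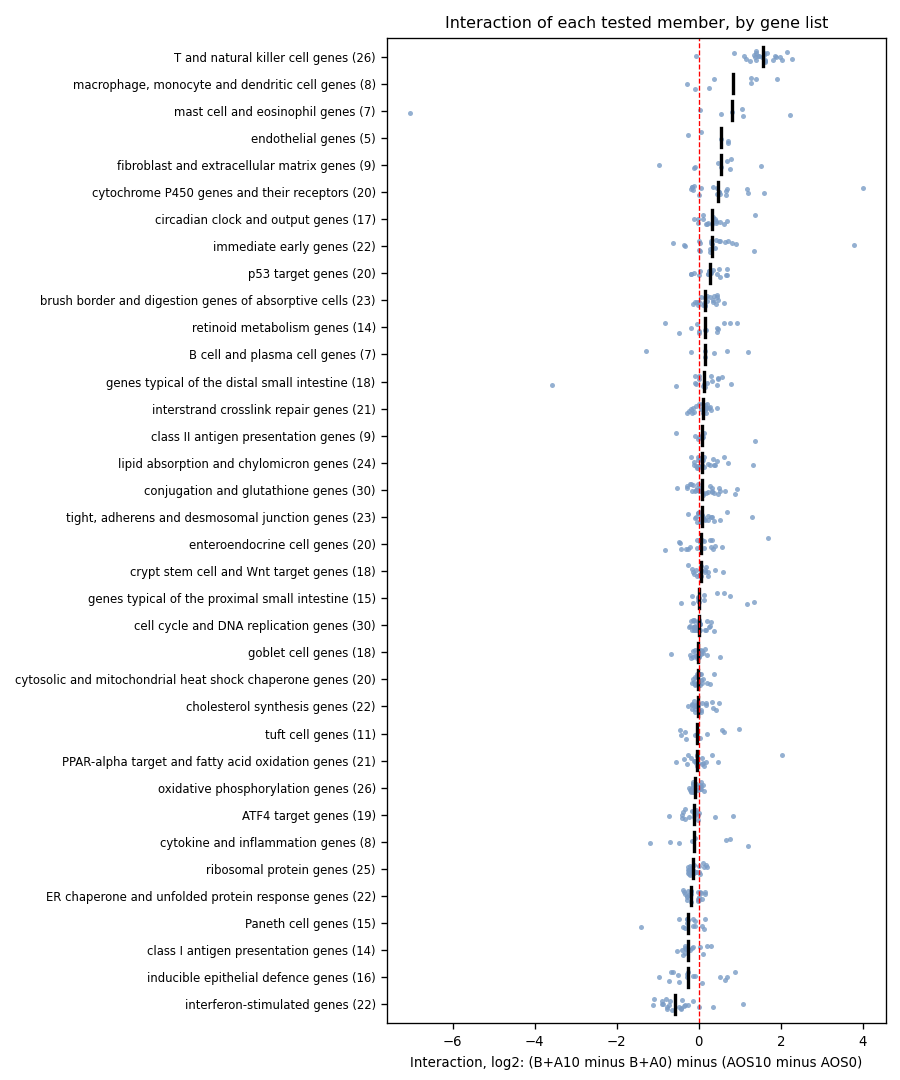
Log2 interaction (horizontal axis) of each tested member of the 36 gene lists with at least 5 tested genes, with the number tested in brackets. Points are genes, black bars list medians and the red dashed line the median of all tested genes. T and natural killer cell genes have a median of 1.57 and interferon-stimulated genes one of -0.57, at the 2 ends of the order.

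Most chaperone genes had a busulfan difference above 0 at both AOS levels, and fewer passed the test at AOS 10 than at AOS 0. All 20 tested heat shock chaperone genes lay above 0 in both differences. Of 20 tested heat shock chaperone genes, 13 were higher in B+A0 than in AOS0 and 4 in B+A10 than in AOS10 by the edgeR test, against 1.7% and 0.146% of all tested genes. The median busulfan difference was 0.81 at AOS 0 and 0.81 at AOS 10, the median interaction was -0.03, and none had p under 0.05. Without B+A10 replicate 2, 2 of 21 lay above 0 at that p. Hsph1, which encodes a cytosolic chaperone of the Hsp110 family, had an interaction of -0.04 (SE 0.362, 95% interval -0.82 to 0.74). Its level was 91.1, 123 and 81.7 CPM in AOS0 and 145, 148 and 137 CPM in AOS10. It was 268, 433 and 488 CPM in B+A0 and 679, 342 and 660.3 CPM in B+A10. Both busulfan groups were above both groups without busulfan, and the interval of the interaction is wide on either side of 0. Of 22 endoplasmic reticulum chaperone and unfolded protein response genes, 13 were higher in B+A0 than in AOS0 by the edgeR test. In B+A10 against AOS10, 3 were. The busulfan difference lay above 0 in 21 of the 22 at either AOS level, with medians of 0.44 at AOS 0 and 0.36 at AOS 10. Their interactions were below 0 in 16 of 22, with a median of -0.19, and 2 had p under 0.05: Manf, a secreted stress factor, at -0.34 (SE 0.142), and Creld2, a disulphide isomerase, at -0.37 (SE 0.159). With 1 library left out that number ran from 0, without AOS0 replicate 1, AOS10 replicate 3 or B+A10 replicate 2, to 7, without B+A10 replicate 3. Banp, which encodes a nuclear matrix protein, had an interaction of -0.68 (SE 0.229, adjusted p = 0.564 by edgeR). Its busulfan difference was 1.79 at AOS 0 and 1.11 at AOS 10.

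Lists of renewal genes had medians close to 0. Of 30 cell cycle and DNA replication genes, all tested, 14 lay above 0 and 16 below, the median was -0.01, and none had p under 0.05. Mki67, a marker of proliferating cells, had a value of 0.26 (95% interval -0.37 to 0.88). Crypt stem cell and Wnt target genes had 12 of 18 above 0 and a median of 0.05. Lgr5, which marks crypt stem cells, had a value of 0.40 (interval -0.32 to 1.12). Of 21 interstrand crosslink repair genes, 14 lay above 0 with a median of 0.11 and none with p under 0.05. Of 20 tested p53 target genes 16 lay above 0, with a median of 0.27. At p under 0.05, 2 lay above 0, against 4.19% of all tested genes. The number became 4 on leaving out either B+A0 replicate 1 or else B+A10 replicate 3. One of the 2 was Pmaip1, the cell death activator Noxa, at 0.70 (SE 0.208), with 14.5 to 24.3 CPM in B+A0 and 24.5 to 30.5 CPM elsewhere.

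Among lineage markers, the goblet cell mucin gene Muc2 had an interaction of -0.10 (interval -0.52 to 0.31) and the Paneth cell lysozyme gene Lyz1 one of -0.13 (interval -1.04 to 0.77). Chga, an enteroendocrine granule protein, had one of -0.26 (interval -0.67 to 0.14). The tuft cell kinase gene Dclk1 had one of 0.57 (interval -0.67 to 1.82), and Alpi, the intestinal alkaline phosphatase of absorptive cells, one of 0.34 (interval -0.26 to 0.94). All of these intervals include 0. The goblet list median was -0.03 over 18 genes, the enteroendocrine median 0.05 over 20 and the tuft median -0.04 over 11. Paneth cell genes had 12 of 15 below 0, with a median of -0.25. At p under 0.05, 2 of them lay below 0 and none above, against 2.65% and 4.19% of all tested genes: the defensin gene Defa22 at -1.40 (SE 0.443), whose reads may be split with close copies, and the lectin gene Itln1 at -0.49 (SE 0.22), both named after their values were seen. Without AOS10 replicate 1 the Paneth median was -0.005985, with 8 of 15 below 0. Of the 20 enteroendocrine genes, 1 lay above 0 and 1 below 0 at p under 0.05, against 4.19% and 2.65% of all tested genes. The 1 above 0 was Tph1, the serotonin-making enzyme of enterochromaffin cells. Tph1 had the smallest p of the list, with an interaction of 1.68 (SE 0.506, adjusted p = 0.499 by edgeR). It lay at 0.439, 0.953 and 0.485 CPM in B+A0 and at 1.36 to 2.88 CPM in the other 9 libraries, without overlap.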

How the data were processed

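Total RNA from mouse small intestine was sequenced in 12 libraries, whose titles gave the groups and replicate numbers. The submitters' processing notes name the build mm10. The aligner, the counting tool, its annotation and its use of strand were not given in the sources used here. The authors deposited expected counts per gene, called read counts per the file headers, without normalization. Between 8.9% and 9.33% of them were not whole (tolerance 1e-06), and all were rounded. The second deposited set of values has no unit in its header and was taken as FPKM. For 5071 genes above 500 counts in every library, the ratio of count to value tracked the library total within 0.149%.

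Counts were fitted with edgeR 4.0.16 in R 4.3.3: genes kept by filterByExpr (minimum count 10), TMM factors of 0.969 to 1.05, and 1 quasi-likelihood model with 4 group means. The interaction contrast and its 4 component differences were tested with Benjamini-Hochberg adjustment at 0.05 over 12329 genes. The SE is the unshrunken log2 value over the root of F, and intervals are 95% intervals from the t distribution. CPM are TMM-scaled. The test was checked on simulated data. The 42 gene lists and the named genes were chosen with earlier results of these data known. They are therefore described by counts and medians without a set test. Named genes are up to 10 per direction with the smallest p and a mean of at least 1 CPM, up to 3 per gene list, and 18 fixed genes. A gene that this rule names is not reported here. Unnamed genes and immune receptor variable segments were left out of that rule. Other genes are marked where named, except Isg15 and Ifit1, taken for their promoters.

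Alternatives were DESeq2 1.42.0, its size factors in edgeR, 2 other filters, a replicate block, limma 3.58.1 on log2(FPKM + 1) and leaving out each library. Coordinates and promoter windows are from RefSeq GRCm38.p6, matched by gene ID, with 12282 of 12329 tested genes matched. Figures were drawn with matplotlib 3.10.9.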

Additional observations from a re-analysis of the deposited data

How the results depend on the processing

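With 3 libraries per group the interaction had a median SE of 0.402 for genes under 10 CPM, so small interactions of low genes were not detectable. Genes of at least 10 CPM had a median SE of 0.159. Even so, no adjusted p by edgeR was under 0.499, also where a value was several times its SE, as for Ugcg. The absence of calls therefore does not show an absence of interactions at any level. The number of called genes was 0 in edgeR with DESeq2 size factors, with both other filters, with the replicate block and in limma on log2(FPKM + 1). In contrast, DESeq2 called 16 (13 above 0, 3 below), and 4 of these fall outside the naming rule and were named after their values were seen: Defa32, Hoxb8, Srgn and Gm40892. The cause of this difference from edgeR was not tested. Defa32, 1 of the 3 below 0, had a DESeq2 log2 interaction of -27.09. The edgeR values of all tested genes ran from -13.87 to 10.13, so the size of the Defa32 value is not reliable. Leaving out 1 library gave 0 to 1 called genes (0 to 1 above 0). Genes at an unadjusted p under 0.05 then numbered from 568, leaving out B+A0 replicate 3, to 1318, leaving out B+A0 replicate 1, with 364 to 862 above 0 and 185 to 561 below. They numbered 1310 without B+A10 replicate 1. The other settings gave 722 to 988.

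Same-numbered samples correlated from -0.153 to 0.153 in their deviations from group means. These correlations are over all genes together and cannot show whether same-numbered samples share anything in a part of the genes. With the replicate block, 0 genes were called and 722 had p under 0.05, against 844 without it.

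By limma, the median interaction was 0.76 for T and natural killer cell genes, 0.25 for macrophage genes and 0.20 for endothelial genes, on a scale where the added 1 shrinks low genes. Medians with 1 library left out ranged from 1.05 to 1.89 for T and natural killer cell genes and from 0.0391 to 0.74 for B cell genes. They ranged from -0.0541 to 0.65 for endothelial, -0.00957 to 0.51 for brush border, -0.0543 to 0.40 for lipid absorption, -0.0579 to 0.41 for proximal and -0.003437 to 0.45 for distal genes. They ranged from -0.15 to 0.19 for enteroendocrine genes, -0.21 to -0.0808 for endoplasmic reticulum chaperone genes, -0.24 to -0.0530 for ATF4 target genes, -0.40 to -0.0296 for class I genes and -0.15 to 0.47 for class II genes.

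Among named genes, 5 changed sign with 1 library left out: Lyz1 (-0.45 to 0.32), Prf1 (-0.62 to 0.25), Mki67 (-0.0481 to 0.44), Hsph1 (-0.25 to 0.23) and Muc2 (-0.22 to 0.0208). By limma Lyz1 was 0.003595.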

Other observations

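Other gene groups had the following interactions, none of which passed after adjustment by edgeR. Of 23 tested junction genes 17 lay above 0, with a median of 0.07, and 5 had p under 0.05, all above 0, where 4.19% of all tested genes did. With 1 library left out that number ran from 1, without AOS0 replicate 3 or AOS10 replicate 1, to 7, without B+A0 replicate 1. Dsp, the desmosome protein desmoplakin, had a value of 0.36 (SE 0.0994). It lay at 459.2, 490.4 and 450.45 CPM in AOS0, 397 to 434 CPM in AOS10, 404 to 423 CPM in B+A0 and 454 to 483 CPM in B+A10. Circadian clock and output genes had 14 of 17 above 0, with a median of 0.33 and none with p under 0.05, but 4 on leaving out either replicate 1 or replicate 3 of B+A10. The labels give no time of sampling. Conjugation and glutathione genes had 18 of 30 above 0. At p under 0.05, 4 lay above and 1 below 0, against 4.19% and 2.65% of all tested genes. The number above ran from 1, without AOS10 replicate 3 or B+A10 replicate 2, to 6, without replicate 1 of either busulfan group.

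Of 9 tested fibroblast and matrix genes 6 lay above 0, with a median of 0.54. That median ranged from 0.26 to 1.02 with 1 library left out. With at least 1 CPM required in every library of 1 group, 4 of these genes were tested, 2 above 0, with a median of 0.185. Of 5 endothelial genes 4 lay above 0, also with a median of 0.54. Of 8 tested cytokine genes 3 lay above 0, including Tgfb1, a regulatory cytokine, at 1.19 (SE 0.418), with 0.849 to 2.01 CPM in B+A0 and 2.23 to 4.01 CPM elsewhere. Ribosomal protein genes had 18 of 25 below 0, with a median of -0.14, and oxidative phosphorylation genes 19 of 26, with a median of -0.10, and none had p under 0.05. Without B+A0 replicate 1, 12 of the 25 ribosomal protein genes lay below 0 at p under 0.05, with a median of -0.22, and without B+A0 replicate 3 their median was -0.06. ATF4 target genes had 16 of 19 below 0, with a median of -0.11. Cholesterol synthesis genes had a median of -0.03 over 22 genes and PPAR-alpha target genes one of -0.04 over 21. Lists with fewer than 3 tested genes were those of neutrophils, red blood cells, smooth muscle, enteric neurons, exocrine pancreas and fat cells.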
